A study of Mus musculus with 24 samples.

Results

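The transcripts of 10 genes at the center of mTorc1 signaling were followed through 24 livers of fasted mice: Tsc1, Tsc2 and Tbc1d7, Rheb, Mtor and Rptor, Eif4ebp1, Eif4ebp2 and Rps6kb1, and Ddit4. They were chosen by gene symbol, each symbol matched 1 row of a count table of 35275 genes, and all 10 passed the filter on low counts in every comparison.

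mTorc1 is a kinase complex on the lysosome that promotes anabolic growth when nutrients and insulin are plentiful and is turned off in fasting. The small GTPase Rheb activates it, and the Tsc complex of Tsc1, Tsc2 and Tbc1d7 turns Rheb off. Mtor is the kinase and Rptor presents its substrates, among them the translational repressors Eif4ebp1 and Eif4ebp2 and the S6 kinase Rps6kb1. Ddit4 (Redd1) is a stress-induced protein that acts through the Tsc complex to restrain mTorc1. Because mTorc1 is regulated mainly by protein phosphorylation and location, transcript levels do not measure its activity.

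All 24 libraries were from livers of male C57BL/6 mice of 8 to 10 weeks after 24 h without food, with 4 libraries for each of 6 genotypes. The labels name Wild type (called control here), Tsc1 L-/-, Cpt2 L-/-, Tsc1Cpt2 L-/- (DKO), PPAR-a KO (Ppara KO) and Cpt2L-/- Ppara KO (Cpt2 Ppara KO). By the study's methods the L-/- deletions are made by Albumin-Cre, which acts in hepatocytes and leaves other liver cells their intact alleles. The control mice are littermates that carry floxed Tsc1 and floxed Cpt2, and the methods do not state whether they carry Cre. The study asks whether mTorc1 activation by loss of Tsc1 can restrain fasting Pparα signaling in livers that cannot oxidize fatty acids because Cpt2 (carnitine palmitoyltransferase 2, of the mitochondrial inner membrane) is missing. The methods describe the other 4 genotypes, so how the Ppara KO and Cpt2 Ppara KO mice were made, and what their own littermate controls would be, is not given in the sources used here.

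Total counts were between 14470968 and 20371204 reads per library. The deleted Tsc1 was lower in every Tsc1 L-/- and DKO library than in every control library, whereas Cpt2 did not check its labels, since it averaged 92.3 ± 10.1 CPM (SD, n = 4) in Cpt2 L-/- and 97.6 ± 6.84 CPM in control livers, although it was 96.9 ± 17.6 CPM in DKO and 139 ± 26.2 CPM in Tsc1 L-/- livers, and gene-level counts do not resolve deleted exons. CPM are counts per 1000000 reads after scaling of the libraries by TMM, a method of edgeR. The hepatocyte markers Alb, Apoa1 and Hnf4a were found in every library. In DKO livers, against control, 8 of 8 stellate cell, 5 of 8 endothelial, 5 of 7 Kupffer cell, 1 of 7 cholangiocyte and 1 of 3 lymphocyte markers were called lower and 1 Kupffer cell marker higher. Of 7 hepatocyte genes 4 were called lower, as were 17.1% of all genes. The summed hepatocyte level was 28217 to 34367 CPM in DKO and 62297 to 79058 CPM in control livers. In Cpt2 L-/- livers it was 35168 to 59055 CPM, and 3 of 7 hepatocyte and 3 of 8 stellate cell markers were called lower than in control, as were 14.9% of all genes, with at most 1 gene called in each direction in the other lists. The part of these shifts in the results for DKO and Cpt2 L-/- livers was not tested, and in bulk liver fewer cells of a type and less RNA per cell cannot be told apart.

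The library labelled Cpt2 Ppara KO replicate 1 stood apart from its group and partly against its label. Its Ppara level was 91.9 CPM, beside 26.2 to 46.2 CPM in replicates 2 to 4 and 213 to 276 CPM in control (the Ppara KO livers were at 45.2, 13.03, 13.05 and 38.1 CPM). The Pparα target Acot1 was at 957 CPM in it and at 60.1 to 106 CPM in the other 3, and Fgf21 was at 92.8 CPM against 0.97 to 6.71 CPM. In Cpt2 L-/- livers Acot1 was at 742 to 1122 CPM and Fgf21 at 37.7 to 66.7 CPM. Genes of high GC content and long genes were also low in it (a slope of -0.29 log2 per 10% GC and -0.25 log2 per doubling of length against its group). Among the mTorc1 genes, Tsc2, Rptor, Tsc1 and Eif4ebp2 were lowest in this library of all Cpt2 Ppara KO livers, and Rheb, Eif4ebp1, Tbc1d7 and Rps6kb1 were highest. Ppara KO replicate 4 also lay far from its group, with Tsc2, Rptor and Mtor higher and Eif4ebp1 lower than in the other 3.

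**Figure D1:**
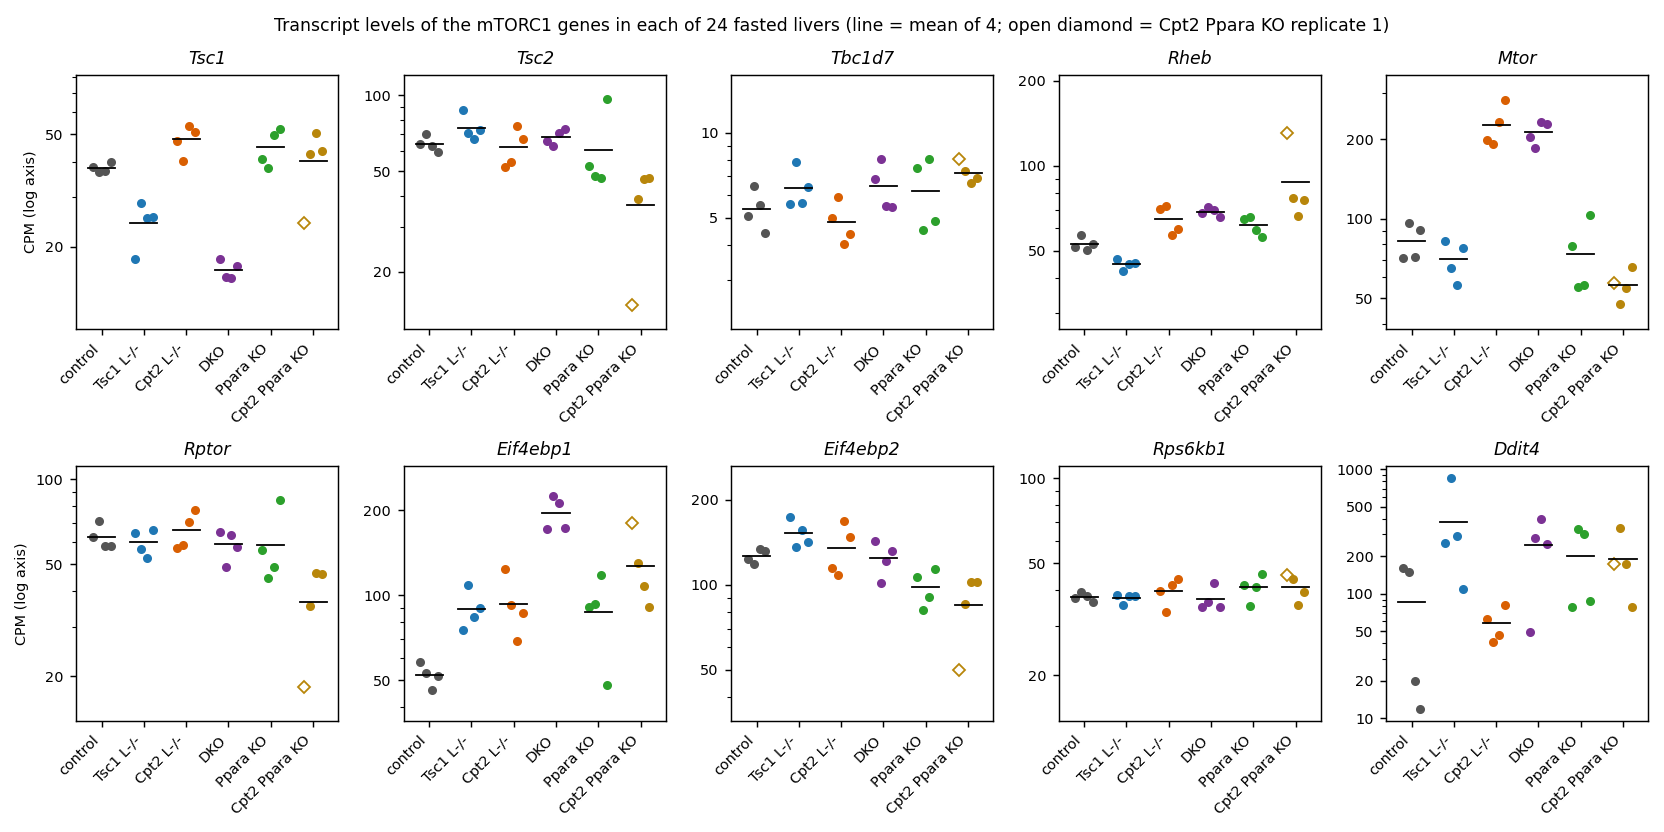
Level of each of the 10 genes in CPM on a log axis, 1 point per liver, by genotype, with the mean of 4 as a line and the library labelled Cpt2 Ppara KO replicate 1 as an open diamond. Mtor was higher in all 8 Cpt2 L-/- and DKO livers (186 to 282 CPM) than in the other 16 (47.6 to 104 CPM), Eif4ebp1 had its highest group mean in DKO livers, and Rps6kb1 stayed between 33.4 and 45.7 CPM.

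In the edgeR fits used here at most 4 of the 10 genes were called in any comparison. A gene was called when its adjusted p-value was under 0.05 in the quasi-likelihood test of edgeR, adjusted over all genes tested. Between Tsc1 L-/- and control livers 2 of 10 were called, Eif4ebp1 higher and Tsc1 lower, where 6.64% of 13641 genes were called. Between Cpt2 L-/- and control livers 3 of 10 were called, Mtor, Eif4ebp1 and Rheb, all higher, where 31.0% of all genes were called. Between DKO and control livers 4 of 10 were called, with Mtor, Eif4ebp1 and Rheb higher and Tsc1 lower, at a background of 36.4%. Tsc1 is the gene deleted in Tsc1 L-/- and DKO livers, so its calls there were set by the design. With it counted, the shares of members in the Cpt2 L-/- and DKO comparisons were close to those of all genes. The median log2 fold change of the 10 genes was 0.10, 0.06 and 0.17 in these comparisons, beside 0.01, -0.02 and 0.02 over all genes.

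The deletions were also compared with each other. Between DKO and Cpt2 L-/- livers 2 of 10 were called (Eif4ebp1 higher, Tsc1 lower) at a background of 18.3%, and between DKO and Tsc1 L-/- livers 4 of 10 (Rheb, Mtor and Eif4ebp1 higher, Tsc1 lower) at 32.2%. The interaction of Tsc1 and Cpt2 loss was called for the deleted gene Tsc1 alone, at a background of 2.38%. The call of Tsc1 between DKO and Cpt2 L-/- livers was set by the design. These comparisons share libraries, so their calls are not independent of each other.

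With Ppara deleted, 0 to 2 of the 10 genes were called by these fits. Between Ppara KO and control livers 1 of 10 was called (Eif4ebp1, higher) at a background of 27.5%. Leaving out 1 library at a time gave 3 calls without Ppara KO replicate 4, at a background of 30.4%, and 0 without any other library. Between Cpt2 Ppara KO and Cpt2 L-/- livers 2 of 10 (Mtor lower, Ddit4 higher) at 13.0%. Without the library labelled Cpt2 Ppara KO replicate 1 there were 3 in the latter, Rptor being the added one, at a background of 18.0%. Between Cpt2 Ppara KO and Ppara KO livers 0 of 10 were called by edgeR, DESeq2 or limma, where 0.868% of all genes were called, and 1 (Rptor) had an unadjusted p under 0.05 in edgeR. The background itself depended on single libraries, with 0.0919% of all genes called without Cpt2 Ppara KO replicate 1 and 0.0383% without Ppara KO replicate 4, and 0 members called in either case. These shares are from fits of the 2 groups and are not the background of the fit of all 24 libraries, which is not given here. That fit called 3 members in this comparison, Tsc2 (log2 fold change -0.75, adjusted p = 0.0282) and Rptor (-0.69, adjusted p = 0.0204) lower and Rheb (0.48, adjusted p = 0.0228) higher. In the fit of both groups without Cpt2 Ppara KO replicate 1 these values were smaller and not called, at -0.48 for Tsc2 (adjusted p = 0.316), -0.47 for Rptor (adjusted p = 0.285) and 0.22 for Rheb (adjusted p = 0.469). The interaction of Cpt2 and Ppara loss was called for Mtor alone, with 24.0% of all genes called (22.3% without replicate 1 of Cpt2 Ppara KO, with 1 member called).

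**Figure D2:**
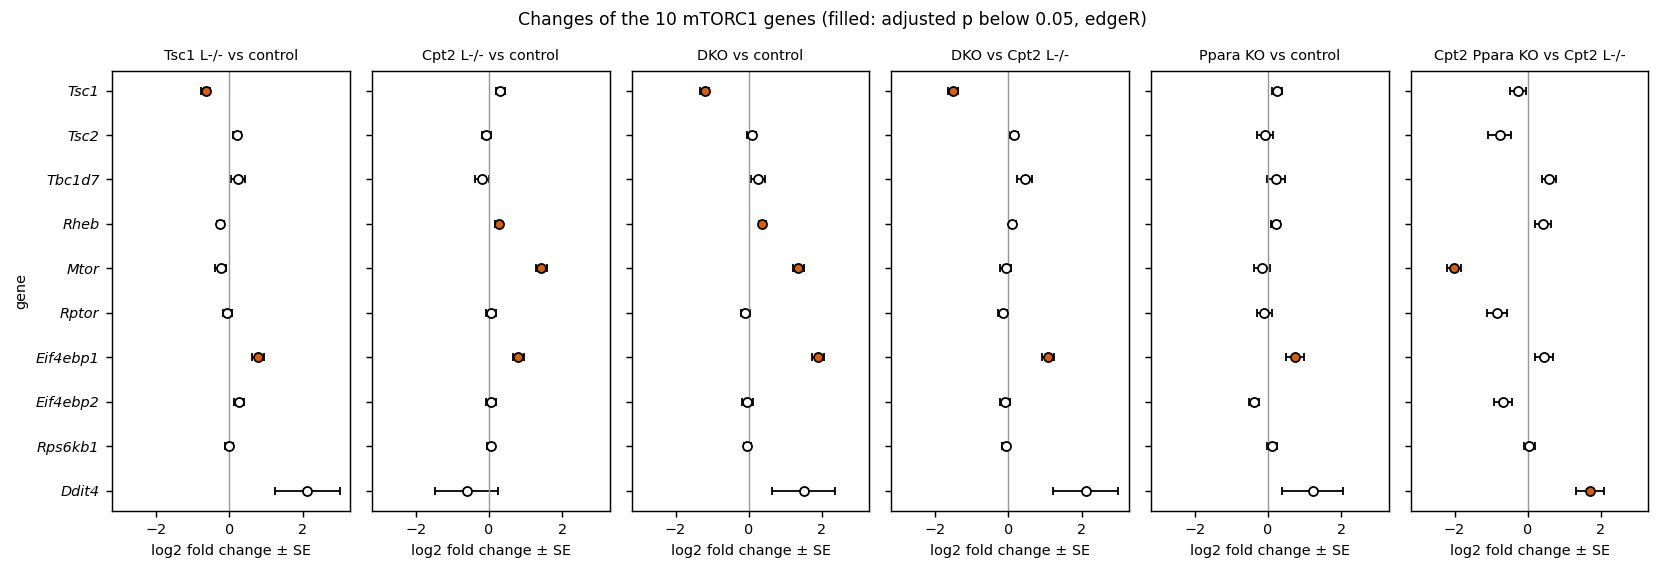
Log2 fold change with its standard error for the 10 genes in 6 comparisons, from the edgeR fits, filled where the adjusted p-value was under 0.05. Tsc2, Tbc1d7, Rptor, Eif4ebp2 and Rps6kb1 were not called in any panel, and Ddit4 carried the widest errors (0.38 to 0.89 on the log2 scale).

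Tsc1 (ENSMUSG00000026812, chromosome 2 from 28641228 to 28691167, GRCm38, plus strand) encodes the subunit that stabilizes Tsc2 and is the gene deleted in Tsc1 L-/- and DKO livers, so its fall there is a check of the labels and not a finding. It was at 38.3, 36.8, 37.2 and 39.9 CPM in control livers, at 18.0, 28.6, 25.3 and 25.5 CPM in Tsc1 L-/- livers and at 18.1, 15.6, 15.5 and 17.1 CPM in DKO livers. The 3 groups overlapped in a single place, Tsc1 L-/- replicate 1 lying among the DKO livers. In Cpt2 L-/- livers it was at 47.5, 40.4, 53.5 and 51.1 CPM, all above control, although this difference was not called (log2 fold change 0.31, standard error 0.13, adjusted p = 0.0695). It was called without Cpt2 L-/- replicate 2 (0.39, adjusted p = 0.0315) and with limma on log2(FPKM + 1) (0.34, adjusted p = 0.0458), FPKM being counts scaled by gene length and library total.

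The fall of Tsc1 was larger where Cpt2 was also deleted. Its log2 fold change was -0.65 (standard error 0.13, adjusted p = 0.00491) from control to Tsc1 L-/- livers and -1.52 (standard error 0.13, adjusted p = 1.1e-06) from Cpt2 L-/- to DKO livers. The difference between these, the interaction, was -0.87 (standard error 0.18, adjusted p = 0.0168). DKO livers also held less Tsc1 than Tsc1 L-/- livers (log2 fold change -0.56, adjusted p = 0.00281), and between the same groups 4 of 7 Kupffer cell, 3 of 8 stellate cell and 2 of 8 endothelial markers, genes of cells without Cre, were called lower in DKO livers, and 1 Kupffer cell marker higher. The same was true of 4 of 7 hepatocyte markers and of 15.2% of all genes. The part of these shifts in the residual Tsc1 was not tested. The interaction was lost when all 24 libraries were fitted together (-0.89, adjusted p = 0.128) and with limma on log2(FPKM + 1) (-0.68, adjusted p = 0.0606).

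In the livers without Ppara, Tsc1 was at 40.9, 37.9, 49.9 and 52.2 CPM in Ppara KO and at 24.3, 42.4, 50.6 and 43.7 CPM in Cpt2 Ppara KO, the lowest being replicate 1. Neither comparison was called (log2 fold change 0.24, adjusted p = 0.215 against control and -0.26, adjusted p = 0.43 against Cpt2 L-/-, the latter -0.08 without replicate 1).

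Tsc2 (ENSMUSG00000002496, chromosome 17 from 24595937 to 24632629, minus strand) carries the GTPase-activating domain that acts on Rheb. Control livers held 59.6 to 70.2 CPM, Tsc1 L-/- livers 66.9 to 87.0 CPM, Cpt2 L-/- livers 52.0 to 75.6 CPM and DKO livers 62.8 to 73.4 CPM. No comparison among these was called, the log2 fold change from control to Tsc1 L-/- being 0.21 (standard error 0.12, adjusted p = 0.343). In Cpt2 Ppara KO livers Tsc2 was at 14.8, 38.9, 46.6 and 47.0 CPM, below every Cpt2 L-/- liver. The ranges of these groups did not overlap for 23.0% of all genes tested. The log2 fold change of Tsc2 was -0.76 (standard error 0.31, adjusted p = 0.121), and -0.50 (adjusted p = 0.0555) without replicate 1. It was called in the fit of all 24 libraries (-0.76, adjusted p = 0.0321). In Ppara KO livers it was at 52.4, 47.7, 47.0 and 96.5 CPM and not called against control (-0.08, adjusted p = 0.819). Without replicate 4 it was called lower (-0.39, adjusted p = 0.0354).

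Tbc1d7 (ENSMUSG00000021368, chromosome 13 from 43151744 to 43171501, minus strand), the third subunit of the complex, had the lowest counts of the 10 genes, with 60 to 164 reads per library and 4.02 to 8.04 CPM. It was not called in any comparison by the edgeR fits used here. Its largest differences were higher levels in Cpt2 Ppara KO (6.63 to 8.04 CPM) than in Cpt2 L-/- livers (4.02 to 5.89 CPM, log2 fold change 0.58, adjusted p = 0.0761, and 0.53, adjusted p = 0.101 without replicate 1) and in DKO (5.45 to 8.03 CPM) than in Cpt2 L-/- livers (0.44, adjusted p = 0.118). The former was called by DESeq2 (0.58, adjusted p = 0.0369) and in the fit of all 24 libraries (0.58, adjusted p = 0.0457).

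Rheb (ENSMUSG00000028945, chromosome 5 from 24802823 to 24842624, minus strand), the activator of mTorc1, showed small shifts in opposite directions. It was at 51.4, 57.1, 50.1 and 52.9 CPM in control livers, at 46.6, 42.3, 44.7 and 45.2 CPM in Tsc1 L-/- livers and at 68.2, 71.5, 70.0 and 65.7 CPM in DKO livers. These 3 groups did not overlap. From control to Tsc1 L-/- the log2 fold change was -0.24 (standard error 0.10, adjusted p = 0.148), which was not called, and from control to DKO it was 0.37 (standard error 0.10, adjusted p = 0.00577). From Tsc1 L-/- to DKO livers Rheb rose by 0.61 on the log2 scale (standard error 0.10, adjusted p = 0.000112). The rise in DKO against control was lost in the fit of all 24 libraries (0.35, adjusted p = 0.0984).

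The Cpt2 L-/- livers were at 70.3, 72.3, 56.9 and 60.0 CPM, with replicate 3 inside the control range. The log2 fold change of 0.27 (standard error 0.10, adjusted p = 0.0409) lay near the threshold. It was lost in 9 of 16 alternatives, among them without Cpt2 L-/- replicate 1 (0.22, adjusted p = 0.123) or 2 (0.21, adjusted p = 0.118) and without control replicate 1 (0.29, adjusted p = 0.0562), 3 (0.27, adjusted p = 0.0721) or 4 (0.29, adjusted p = 0.057). Rheb was at 64.8, 66.1, 59.2 and 55.8 CPM in Ppara KO and at 131, 76.9, 66.3 and 75.6 CPM in Cpt2 Ppara KO livers. The high value was that of replicate 1, and without it the log2 fold change against Cpt2 L-/- went from 0.42 (adjusted p = 0.208) to 0.17 (adjusted p = 0.468). With all livers this difference was called in the fit of all 24 libraries (0.43, adjusted p = 0.0487).

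Mtor (ENSMUSG00000028991, chromosome 4 from 148448611 to 148557683, plus strand), the kinase of the complex, was the member with the largest log2 fold change from control to Cpt2 L-/- livers. It was at 70.9, 96.6, 71.5 and 90.3 CPM in control livers and at 82.2, 64.9, 56.0 and 77.6 CPM in Tsc1 L-/- livers. With Cpt2 deleted it was at 199, 192, 234 and 282 CPM in Cpt2 L-/- livers and at 204, 186, 233 and 228 CPM in DKO livers. Every liver of the latter groups was thus above every control and Tsc1 L-/- liver, at counts of 3023 to 4967 reads against at most 1562. The rise was 2.70-fold from control to Cpt2 L-/- (log2 fold change 1.43, standard error 0.15, adjusted p = 3.03e-06), 2.57-fold from control to DKO (1.36, standard error 0.15, adjusted p = 3.01e-06) and 3.02-fold from Tsc1 L-/- to DKO (1.59, standard error 0.15, adjusted p = 1.38e-06).

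Tsc1 loss was not accompanied by a called change of Mtor, either alone (-0.23, standard error 0.15, adjusted p = 0.409) or on top of Cpt2 loss (-0.07, standard error 0.15, adjusted p = 0.774), and the interaction of the deletions was 0.16 (standard error 0.21, adjusted p = 0.742). The 3 rises with Cpt2 loss were called under all 16 alternatives, with log2 fold changes of 1.32 to 1.55, 1.30 to 1.52 and 1.499 to 1.68.

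In livers that lacked Ppara the rise of Mtor with Cpt2 loss was not seen. Mtor was at 78.8, 55.1, 56.0 and 104 CPM in Ppara KO livers and at 56.8, 47.6, 54.6 and 65.6 CPM in Cpt2 Ppara KO livers. All 4 Cpt2 Ppara KO livers lay below every Cpt2 L-/- liver, the lowest of which was 2.92 times the highest of them. The ranges of these groups did not overlap for 23.0% of all genes tested. The level of Mtor was 4.05-fold lower than in Cpt2 L-/- livers (log2 fold change -2.02, standard error 0.19, adjusted p = 0.000458). The difference between the effect of Cpt2 loss with and without Ppara, an interaction of -1.83 (standard error 0.29, adjusted p = 0.000676), was called under all 23 alternatives. In CPM, Mtor in the library labelled Cpt2 Ppara KO replicate 1 was like that in the other 3, and without it both values were -2.02 (adjusted p = 2.17e-05) and -1.84 (adjusted p = 0.00072). Mtor is the longest member (8564 bases), and long genes were low in that library. Relative to Rptor it was at 2.38 there, at 0.90 to 1.09 in the other 3 and at 2.52 to 2.80 in Cpt2 L-/- livers. The part of gene length in this was not tested. From control to Ppara KO livers Mtor was not called (-0.17, standard error 0.22, adjusted p = 0.586). The Ppara KO and Cpt2 Ppara KO mice have no controls of their own line here, so line and genotype cannot be told apart in these comparisons.

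Angptl7, an angiopoietin-like gene looked at after the values of Mtor were seen, lies inside Mtor on the opposite strand. It reached 1.39 CPM at most in control livers, with a highest value of 1.14 CPM in Cpt2 L-/- livers, and was not called between them. Cpt2 lies on chromosome 4 as well, 40.5 Mb from Mtor.

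The bases before the start of Mtor are shown because Mtor was called between groups with and without Cpt2 and between Cpt2 L-/- and Cpt2 Ppara KO livers, with those of Rheb, which rose with it in DKO livers, and those of Ddit4, the most variable member. The sequences are the 250 bases before the start in RefSeq (GRCm38.p6), 5′ to 3′ on the strand of the gene. By the gene coordinates given above Rheb starts further upstream, so its window lies within that gene span. Of the 10 members 9 had an entry, and Eif4ebp1 had none. Capitals mark the GC box GGGCGG, the box CCAAT and the E-box CACGTG, each searched on both strands.
Mtor, chr4:148448332-148448581, plus strand: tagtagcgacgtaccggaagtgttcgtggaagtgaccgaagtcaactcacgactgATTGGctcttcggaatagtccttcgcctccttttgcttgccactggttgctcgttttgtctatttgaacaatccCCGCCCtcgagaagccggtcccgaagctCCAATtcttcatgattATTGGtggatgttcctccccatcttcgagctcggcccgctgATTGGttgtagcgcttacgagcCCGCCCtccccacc
Rheb, chr5:24842362-24842611, minus strand: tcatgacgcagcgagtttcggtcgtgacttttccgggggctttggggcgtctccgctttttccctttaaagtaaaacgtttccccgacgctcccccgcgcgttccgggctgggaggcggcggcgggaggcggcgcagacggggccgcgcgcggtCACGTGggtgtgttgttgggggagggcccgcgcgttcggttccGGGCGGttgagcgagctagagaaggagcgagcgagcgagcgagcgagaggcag
Ddit4, chr10:59951771-59952020, minus strand: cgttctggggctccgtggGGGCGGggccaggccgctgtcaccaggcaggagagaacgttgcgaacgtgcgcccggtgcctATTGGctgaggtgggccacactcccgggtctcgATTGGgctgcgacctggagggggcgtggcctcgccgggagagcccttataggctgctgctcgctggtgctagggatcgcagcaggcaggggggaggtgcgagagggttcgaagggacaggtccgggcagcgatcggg

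The Mtor window held 4 CCAAT boxes and 2 GC boxes, motifs found in 33.9% and 32.7% of 32851 such windows of all RefSeq genes. The Rheb window held 1 E-box, a motif of 6.02% of the windows that MiT/TFE factors and Myc can bind, and 1 GC box. An E-box was also in the Tbc1d7 window. Ddit4 held 2 CCAAT boxes and 1 GC box. Neither the element of Ppara with its retinoid X receptor (its consensus repeat spaced by any 1 base, in 0.0335% of windows), nor the single repeat AGGTCA (14.02%), which lies within the longer element, was in any of the 9 windows. The cyclic AMP element TGACGTCA (1.55%), the C/EBP-ATF element TGATGCAA (0.792%) and the palindromic consensus glucocorticoid element (0.00913%) were not in them either. This says only that these letters are not in these windows.

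Rptor (ENSMUSG00000025583, chromosome 11 from 119602905 to 119899576, plus strand), the scaffold that distinguishes mTorc1 from mTorc2, did not follow Mtor. It was between 48.9 and 77.7 CPM in all 16 control, Tsc1 L-/-, Cpt2 L-/- and DKO livers, and its log2 fold changes among these groups lay between -0.15 and 0.05 with no call. In Cpt2 Ppara KO livers it was at 18.4, 35.6, 46.5 and 46.3 CPM, below every Cpt2 L-/- liver (57.2, 58.4, 70.7 and 77.7 CPM). The ranges of these groups did not overlap for 23.0% of all genes tested. The log2 fold change of -0.85 (standard error 0.27, adjusted p = 0.0602) was not called. It was called without replicate 1 (-0.62, adjusted p = 0.0204), without replicate 4 (-0.98, adjusted p = 0.0399), by DESeq2 (-0.85, adjusted p = 0.0209) and in the fit of all 24 libraries (-0.84, adjusted p = 0.00804).

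Eif4ebp1 (ENSMUSG00000031490, chromosome 8 from 27260327 to 27275656, plus strand), the translational repressor that mTorc1 inactivates by phosphorylation and a known target of Atf4, was higher with either deletion and highest with both. It was at 58.0, 53.2, 45.9 and 51.8 CPM in control livers, at 75.3, 109, 83.8 and 89.7 CPM in Tsc1 L-/- livers and at 124, 92.1, 68.9 and 86.5 CPM in Cpt2 L-/- livers. In DKO livers it was at 171, 225, 212 and 173 CPM. No mutant liver of these 3 groups overlapped the control livers, and no DKO liver overlapped any other group of the 4.

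The rise was 1.71-fold in Tsc1 L-/- (log2 fold change 0.77, standard error 0.16, adjusted p = 0.00759), 1.75-fold in Cpt2 L-/- (0.80, standard error 0.16, adjusted p = 0.00106) and 3.71-fold in DKO livers (1.89, standard error 0.17, adjusted p = 2.92e-07). On the log2 scale the effects of Tsc1 loss without and with Cpt2 were 0.77 and 1.09, and their difference was not called (interaction 0.31, standard error 0.23, adjusted p = 0.503). The rise in Tsc1 L-/- livers was lost in the fit of all 24 libraries (0.77, adjusted p = 0.0751).

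In Ppara KO livers Eif4ebp1 was at 90.4, 93.4, 118 and 47.9 CPM, with replicate 4 inside the control range. The log2 fold change of 0.74 (standard error 0.24, adjusted p = 0.0409) was lost without any one of control replicates 1 to 4 (0.80, 0.74, 0.68 and 0.73, adjusted p = 0.0684, 0.087, 0.106 and 0.0947) and without Ppara KO replicate 1, 2 or 3 (0.73, 0.70 and 0.57, adjusted p = 0.0603, 0.0759 and 0.115). It was stronger without replicate 4 (0.94, adjusted p = 0.00215). In Cpt2 Ppara KO livers it was at 180, 130, 108 and 91.0 CPM and was not called against Cpt2 L-/- (0.44, adjusted p = 0.233, and 0.24, adjusted p = 0.457 without replicate 1).

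Eif4ebp2 (ENSMUSG00000020091, chromosome 10 from 61432497 to 61452669, minus strand), a second repressor of the same family, did not rise with it. It was at 119 to 134 CPM in control, 136 to 175 CPM in Tsc1 L-/-, 108 to 168 CPM in Cpt2 L-/- and 102 to 143 CPM in DKO livers, with no call. The livers without Ppara were lower, at 81.3 to 114 CPM in Ppara KO (log2 fold change -0.38, adjusted p = 0.0685 against control, and -0.46, adjusted p = 0.0251 without replicate 4). In Cpt2 Ppara KO livers it was at 49.96 to 102 CPM (-0.67, adjusted p = 0.0939 against Cpt2 L-/-, and -0.48, adjusted p = 0.0848 without replicate 1). The former was called by DESeq2 (-0.38, adjusted p = 0.0353) and the latter in the fit of all 24 libraries (-0.67, adjusted p = 0.0136).

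Ratios of members within a library do not depend on how libraries are scaled, and 3 were taken from the deposited FPKM after the levels had been seen. Eif4ebp1 was at 0.75 ± 0.10 of the level of Eif4ebp2 per length (SD, n = 4) in control, 1.09 ± 0.29 in Tsc1 L-/-, 1.33 ± 0.53 in Cpt2 L-/- and 2.94 ± 0.84 in DKO livers, so that Eif4ebp1 was the scarcer repressor transcript in every control liver (0.62 to 0.85) and the more abundant in every DKO liver (2.17 to 4.02). It was at 1.70 ± 0.71 in Ppara KO livers and at 3.22 ± 2.28 in Cpt2 Ppara KO livers, where it was also the more abundant in every liver (1.62 to 6.55). Mtor was at 1.02 ± 0.14 of Rptor in control, 0.90 ± 0.07 in Tsc1 L-/-, 2.64 ± 0.13 in Cpt2 L-/- and 2.81 ± 0.28 in DKO livers. It was at 0.97 ± 0.08 in Ppara KO and 1.35 ± 0.69 in Cpt2 Ppara KO livers, where replicate 1 alone was at 2.38 and the others at 0.90 to 1.09. Tsc1 was at 0.47 ± 0.05 of Tsc2 in control, 0.26 ± 0.07 in Tsc1 L-/-, 0.61 ± 0.07 in Cpt2 L-/- and 0.19 ± 0.02 in DKO livers, and at 0.62 ± 0.17 in Ppara KO and 0.93 ± 0.24 in Cpt2 Ppara KO livers.

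The ranges of each ratio did not overlap between control and DKO livers. This is a description, since the ratios were chosen for the levels of their members and Tsc1 is the deleted gene. The ratio of Mtor to Rptor was 2.61-fold higher in Cpt2 L-/- than in control livers.

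**Figure D3:**
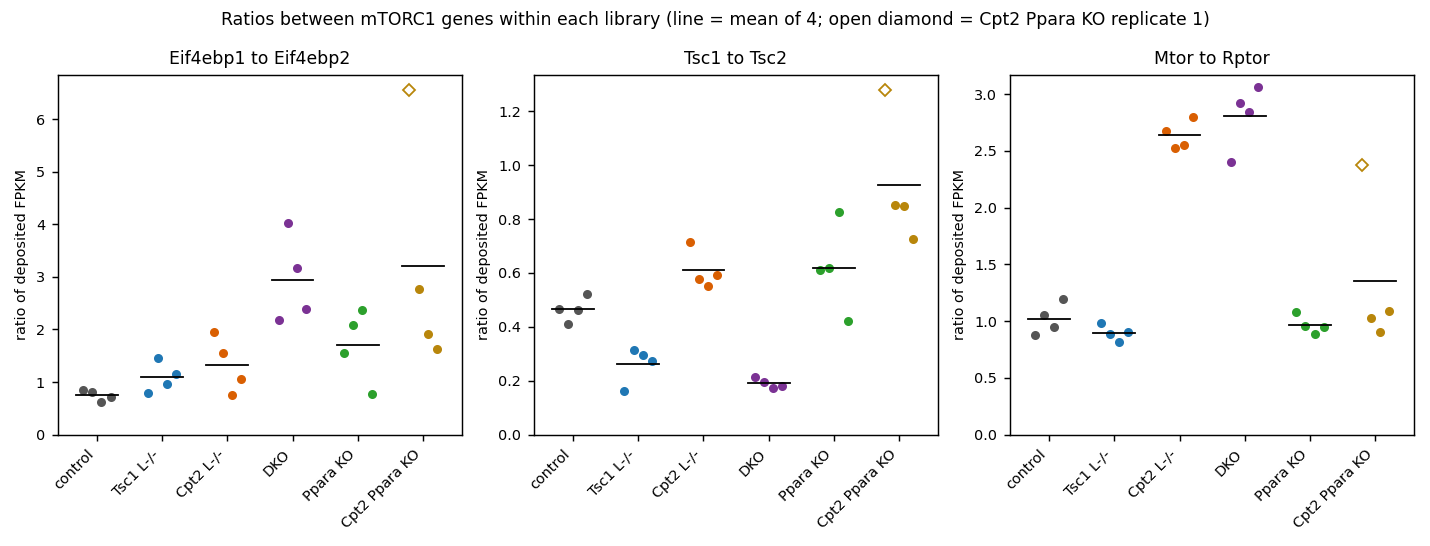
Ratio of deposited FPKM within each of 24 livers for Eif4ebp1 to Eif4ebp2, Tsc1 to Tsc2 and Mtor to Rptor, with the mean of 4 as a line and the library labelled Cpt2 Ppara KO replicate 1 as an open diamond. In all 8 Cpt2 L-/- and DKO livers Mtor was at 2.40 to 3.06 of Rptor, above every other liver, the nearest being the open diamond at 2.38.

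Rps6kb1 (ENSMUSG00000020516, chromosome 11 from 86498871 to 86544805, minus strand), which encodes S6 kinase 1, was the steadiest of the 10 genes, the highest of 24 livers being 1.37 times the lowest in CPM. Its group means were between 37.2 ± 3.52 CPM in DKO and 41.1 ± 4.56 CPM in Cpt2 Ppara KO livers (SD, n = 4). No log2 fold change in the 8 comparisons of groups was outside -0.08 to 0.11, and none was called.

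Ddit4 (ENSMUSG00000020108, chromosome 10 from 59949675 to 59951770, minus strand), which is induced by stress, glucocorticoids and Atf4, varied far more between livers of a group than any other member. It was at 162, 150.3, 20.03 and 11.97 CPM in control livers, a 13.6-fold range, at 257, 855, 293 and 110 CPM in Tsc1 L-/- livers and at 62.9, 40.9, 47.0 and 80.6 CPM in Cpt2 L-/- livers. It was at 49.4, 283, 401 and 252 CPM in DKO, 78.9, 333, 303 and 88.0 CPM in Ppara KO and 172, 337, 173 and 78.9 CPM in Cpt2 Ppara KO livers. The 4 Tsc1 L-/- livers lay above all Cpt2 L-/- livers, and in DKO, Ppara KO and Cpt2 Ppara KO the lowest liver lay within the Cpt2 L-/- range.

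Most differences in Ddit4 were not called, and they ranged from -0.63 to 2.13 on the log2 scale in the 8 comparisons of groups. From control to Tsc1 L-/- livers the log2 fold change was 2.13 (standard error 0.89, adjusted p = 0.19) and from Cpt2 L-/- to DKO livers 2.11 (standard error 0.89, adjusted p = 0.119). The latter was called by DESeq2 (adjusted p = 0.0495) and in an edgeR fit of these groups alone (adjusted p = 0.0499). In the edgeR fits used here only the rise from Cpt2 L-/- to Cpt2 Ppara KO livers was called, at 3.27-fold (log2 fold change 1.71, standard error 0.38, adjusted p = 0.0187, and 1.76, adjusted p = 0.0228 without replicate 1). It was lost without Cpt2 L-/- replicate 2 (1.57, adjusted p = 0.0552) or 3 (1.62, adjusted p = 0.0692) and in the fit of all 24 libraries (1.72, adjusted p = 0.132). In the same comparison 5 of 12 other glucocorticoid target genes rose and none fell, where 6.88% of all genes were called higher, led by Lcn2 (log2 fold change 2.52, adjusted p = 0.00735), Sgk1 (2.06, adjusted p = 0.00242) and Mt2 (1.54, adjusted p = 0.012). Without replicate 1, 5 of 12 rose and 0 fell, where 18.0% of all genes were called in either direction. Lcn2 was then at 2.74 (adjusted p = 0.00221), Sgk1 at 2.27 (adjusted p = 1.19e-05) and Mt2 at 1.72 (adjusted p = 0.000561). From control to Tsc1 L-/- livers 0 of the 12 were called, where 6.64% of all genes were. From Cpt2 L-/- to DKO livers 0 rose and Klf9 fell (-0.52, adjusted p = 0.00977), where 10.9% of all genes were called higher and 7.40% lower. From control to DKO livers 0 of the 12 rose and 3 fell, where 19.3% of all genes were called higher and 17.1% lower. Between Ppara KO and control livers, where Ddit4 was not called (1.22, adjusted p = 0.295), 5 rose and Tsc22d3 fell (-1.69, adjusted p = 0.00988). Of all genes 14.8% were called higher and 12.7% lower there. The relation of these target genes to Ddit4 was not tested.

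The levels of the 10 genes can be set side by side per length. The mean FPKM over 24 livers was 113 for Ddit4, 111 for Eif4ebp1 and 67.8 for Eif4ebp2, followed by 15.7 for Rheb, 14.3 for Mtor, 10.2 for Tsc2, 8.67 for Rptor, 7.08 for Rps6kb1, 4.84 for Tbc1d7 and 4.58 for Tsc1. When the 6 genotypes were ordered by mean CPM for each gene, 4 pairs of neighbors in that order had ranges that did not overlap. They were DKO above control for Mtor, control above Tsc1 L-/- for Tsc1 and Rheb, and Ppara KO above Cpt2 Ppara KO for Tsc2. Over all genes tested, the ranges of the same groups did not overlap for 37.4%, 12.2% and 19.0% of genes, in that order of comparisons, and for 30.9% between Cpt2 L-/- and control livers. The share was 30.5% between DKO and Tsc1 L-/- livers and 23.0% between DKO and Cpt2 L-/- livers. It was also 23.0% between Cpt2 Ppara KO and Cpt2 L-/- livers.

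Other genes of the pathway were counted from lists of its parts, chosen with earlier results of these data known. Of 86 tested genes, in Tsc1 L-/- livers 15 were higher and 1 lower than in control (18.6% called, beside 6.64% of all genes), 27 higher and 7 lower in Cpt2 L-/- (39.5%, beside 31.0%) and 32 higher and 7 lower in DKO livers (45.3%, beside 36.4%). The Rag GTPases and Ragulator bring mTorc1 to the lysosome when amino acids are present, and their list also held Flcn, Fnip1 and Fnip2, which act on RagC and RagD, and the amino acid transporter Slc38a9. Of 12 tested, 3 rose in Tsc1 L-/- livers, Rragd by 4.36 (standard error 0.29, adjusted p = 5.92e-07), Fnip2 by 0.90 (adjusted p = 0.00873) and Rragc by 0.46 (adjusted p = 0.00906) on the log2 scale, and 7 rose in DKO livers. Rragd, the GTPase RagD and a target of the MiT/TFE factors, was at 1.28 to 2.54 CPM in control, 19.9 to 59.6 CPM in Tsc1 L-/-, 4.54 to 5.46 CPM in Cpt2 L-/- and 56.0 to 71.9 CPM in DKO livers. It was at 3.02 to 5.57 CPM in Ppara KO livers (1.11 against control, adjusted p = 0.0237). In Cpt2 Ppara KO livers it was at 9.41 to 13.9 CPM (1.26 against Cpt2 L-/-, adjusted p = 0.00336).

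Of 14 genes of the GATOR complexes and amino acid sensors, 2 rose in Tsc1 L-/- livers, the sestrins Sesn3 (1.75, adjusted p = 0.000116) and Sesn2 (1.17, adjusted p = 0.0302), and 5 rose in DKO livers, with no gene lower in either. These were 14.3% and 35.7% of the list, beside 6.64% and 36.4% of all genes. Of 14 upstream kinases and stress inputs, 1 rose in Tsc1 L-/- livers, Prkaa1 of the AMP-activated kinase (0.41, adjusted p = 0.0318), and 8 rose and 1 fell in Cpt2 L-/- livers (7.14% and 64.3% called, beside 6.64% and 31.0% of all genes). Those that rose included Prkab2 (1.51, adjusted p = 1.88e-05), Pdpk1 (0.79, adjusted p = 0.000305) and Prkaa2 (0.78, adjusted p = 0.000205). In DKO livers 6 of the 14 rose and 3 fell (64.3%, beside 36.4% of all genes), and Prkab2 was not called (0.17, adjusted p = 0.534). Of 18 effectors and translation genes, 3 rose in Tsc1 L-/- livers, Eef2k (1.11, adjusted p = 0.00898), Pdcd4 (0.91, adjusted p = 0.00232) and Ulk1 (0.50, adjusted p = 0.0407), which encode inhibitors of elongation and initiation and an autophagy kinase. In DKO livers the helicase Eif4a1 rose (0.74, adjusted p = 4.91e-05), and Ulk1 (-0.38, adjusted p = 0.0447) and Atg13 (-0.32, adjusted p = 0.0262), its partner in autophagy, fell. The calls were 16.7% of this list in both comparisons, beside 6.64% of all genes in Tsc1 L-/- and 36.4% in DKO livers. The interaction of Tsc1 and Cpt2 loss was called for 3 of the 18, Pdcd4 (-0.92, adjusted p = 0.0429), Ulk1 (-0.78, adjusted p = 0.048) and Maf1 (-0.62, adjusted p = 0.0496), a repressor of RNA polymerase III, beside 2.38% of all genes.

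Among 10 other genes of the mTor complexes, 1 rose and 1 fell in Tsc1 L-/- livers against control, 2 rose and 1 fell in Cpt2 L-/- livers, and 2 rose and 1 fell in DKO livers. Over all genes 6.64%, 31.0% and 36.4% were called in these comparisons. Prr5, a subunit of mTorc2, was the one that fell in Tsc1 L-/- livers (-0.62, adjusted p = 0.0492). Deptor, an inhibitor of both complexes, rose in Tsc1 L-/- livers (0.51, adjusted p = 0.0216), fell in Cpt2 L-/- livers (-0.35, adjusted p = 0.0445), was lower in DKO than in Tsc1 L-/- livers (-0.65, adjusted p = 0.000757), fell in Ppara KO livers (-1.996, adjusted p = 0.00109) and was lower in Cpt2 Ppara KO than in Cpt2 L-/- livers (-1.24, adjusted p = 0.00555, and -1.09, adjusted p = 0.000656 without replicate 1). Of 17 genes of Atf4, a transcription factor of amino acid stress, and its targets, 5 rose in Tsc1 L-/- livers, led by Psat1 (3.59, adjusted p = 0.00772), Nupr1 (3.54, adjusted p = 0.0128) and Asns (3.40, adjusted p = 0.0122). In Cpt2 L-/- livers 9 rose and 1 fell, and in DKO livers 11 rose and 1 fell, led by Psat1 (6.04, adjusted p = 2.2e-05). The shares called were 29.4%, 58.8% and 70.6% of the list, beside 6.64%, 31.0% and 36.4% of all genes. Against control, 10 of 15 tested Atf4 genes rose and 1 fell in Ppara KO livers (73.3%, beside 27.5% of all genes). From Cpt2 L-/- to Cpt2 Ppara KO livers 5 of 17 rose and 2 fell (41.2%, beside 13.0%). In Ppara KO livers 27 of 83 tested pathway genes were higher and 9 lower than in control (43.4%, beside 27.5% of all genes). Between Cpt2 Ppara KO and Cpt2 L-/- livers 8 were higher and 4 lower of 86 (13.95%, beside 13.0%), and 8 and 6 without replicate 1, where 18.0% of all genes were called.

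**Figure D4:**
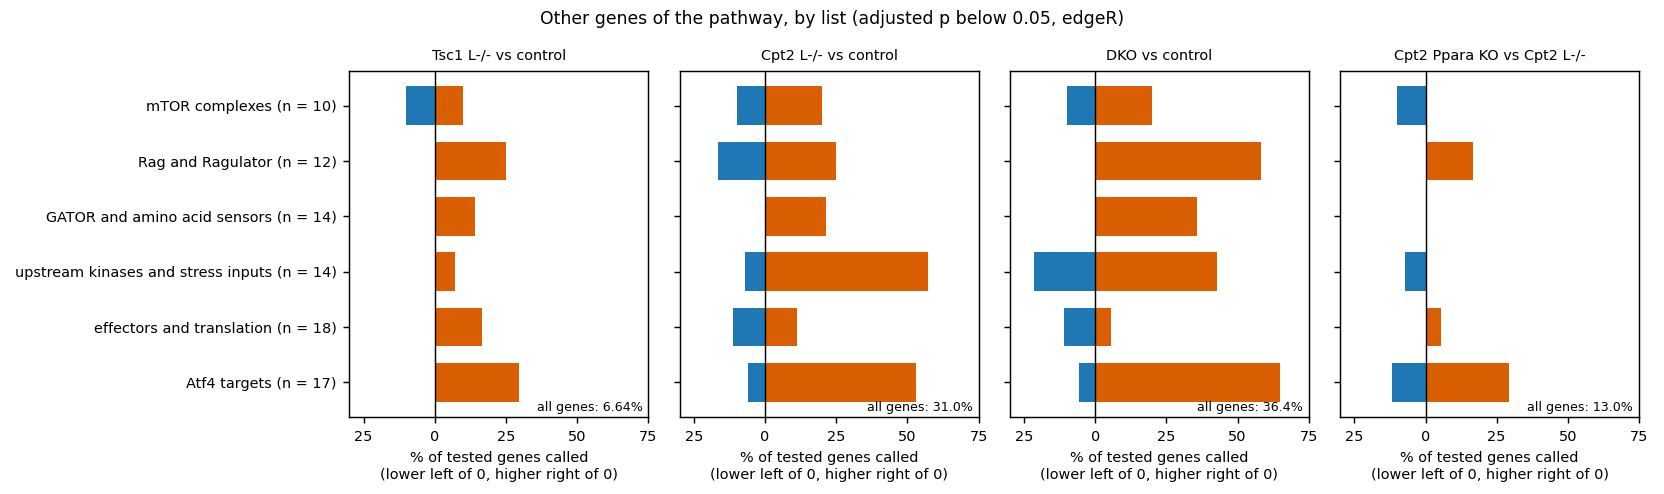
Percent of the tested genes of 6 pathway lists, members left out, called higher (right) or lower (left) in 4 comparisons, with the percent of all genes called in each panel. In Tsc1 L-/- livers 3 of 12 genes of the Rag and Ragulator list and 5 of 17 Atf4 genes were higher, beside 6.64% of all genes called in either direction.

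The genes whose pattern over the 24 livers was most like that of a member were found by the root mean square difference of log2 CPM, each gene centered on its mean, among 13986 genes. For Tsc1 they were Arhgap25 (0.31), Colec12 (0.37) and Ldlrad4 (0.37), for Eif4ebp1 1110007C09Rik (0.26), Fth1 (0.27) and Atp6v0e (0.28), and for Mtor, added after its values were seen, Plcl2 (0.37), Large (0.37) and Entpd5 (0.38). The spread of these members around their own means was 0.59, 0.65 and 0.83. No gene came close to Ddit4, whose spread was 1.43, the nearest being 2410131K14Rik (1.02), Eif4ebp3 (1.04), the remaining repressor of its family, and Ift57 (1.05).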

How the data were processed

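RNA from liver pieces was sequenced as single reads of 75 bases from stranded mRNA libraries. The authors deposited a table of raw read counts and a table of FPKM per gene, each for 24 libraries with GRCm38 coordinates. The submitters' processing notes name STAR 2.5, HTSeq 0.6.1, Bowtie 0.12.2, TopHat, STAR-Fusion, DESeq2 and edgeR, and the builds mm8 and mm9, without roles. The strand setting of the counting is not given in the sources used here, so reads of antisense neighbors and near-identical copies may be split. Total counts bound precision, and counting error alone is smaller than the spread of libraries.

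Counts were tested in R 4.3.3 with edgeR 4.0.16 (TMM, filterByExpr with a minimum count of 10 and total of 15, robust quasi-likelihood test, Benjamini-Hochberg adjustment over all genes tested, threshold 0.05). The control, Tsc1 L-/-, Cpt2 L-/- and DKO libraries were fitted together, each comparison with a Ppara KO group in a fit of its 2 groups, and the Cpt2 by Ppara interaction over its 4 groups. CPM were scaled over 24 libraries. DESeq2 1.42.0, limma 3.58.1 on log2 of the deposited FPKM plus 1 or 0.1, no filter, a replicate block, other sets of libraries and leaving out each library were the alternatives. Groups came from the labels, and p-values measure the spread between these libraries. The tests were tried on simulated data. All members are named. Other pathway genes named are examples from the up to 4 called genes of largest change in their list whose mean CPM was 1 or more. The ratios, Angptl7 and the genes most like Mtor were chosen after values were seen. The members and gene lists were chosen with earlier results of these data known.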

Additional observations from a re-analysis of the deposited data

Results flagged for a closer look

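Tsc2 in Ppara KO replicate 4 was at 96.5 CPM, while the other 3 livers of the group were at 47.0 to 52.4 CPM. Rheb in the library labelled Cpt2 Ppara KO replicate 1 was at 131 CPM, while the other 3 were at 66.3 to 76.9 CPM. Both were samples far from the others of their group by Dixon's test, which chance passes in about 1 in 20 groups, and 60 groups were tested.

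The effect of Tsc1 deletion on the Tsc1 transcript differed between livers with and without Cpt2, with an interaction of -0.87 on the log2 scale (adjusted p = 0.0168). The effect of Cpt2 deletion on Mtor differed between livers with and without Ppara, with an interaction of -1.83 on the log2 scale (adjusted p = 0.000676).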

How the results depend on the processing

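Of the 20 calls of a member in a comparison, 304 of 331 values under alternatives stayed past the threshold, 27 did not and none changed sign. Those lost were the calls of Rheb, Eif4ebp1, Tsc1 and Ddit4 named in the report, and the cause was not tested. The counts that follow are given without the share of all genes called under the same alternative. A change in them is therefore not a result about the members. In one fit of all 24 libraries the count of members called was 1 between Tsc1 L-/- and control livers, 0 for the Tsc1 by Cpt2 interaction, 6 between Cpt2 Ppara KO and Cpt2 L-/- and 3 between Cpt2 Ppara KO and Ppara KO livers. With limma the interaction of Tsc1 and Cpt2 had 0 calls at either pseudocount, and so had Ppara KO against control. DESeq2 called 2 members between Ppara KO and control and 4 between Cpt2 Ppara KO and Cpt2 L-/- livers. Leaving out 1 library at a time gave 0 to 3 calls between Ppara KO and control, 1 to 3 between Cpt2 Ppara KO and Cpt2 L-/-, and 2 to 3 between Cpt2 L-/- and control livers. With the replicate number as a block, 0 members were called between Ppara KO and control and 5 between Cpt2 Ppara KO and Cpt2 L-/- livers. Same-numbered libraries did not deviate together (60 pairs, correlations of -0.26 to 0.22, 10 over 0.1), so that they share only a number and the pairing has no basis in the data. Depth limits Tbc1d7 most, at 60 to 164 reads per library.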
